A study of Mus musculus with 10 samples.

Results

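The genes described here are the RUNX transcription factors Runx1, Runx2 and Runx3 and their shared partner Cbfb, which were taken by name as 4 of the 17404 genes in the gene table, together with the 33 of 133944 transcripts annotated to them. They were measured by bulk RNA-sequencing of long-term hematopoietic stem cells (LT-HSCs) sorted from mouse fetal livers at E14.5 of embryonic development. The KO group (6 libraries) carried Tnfrsf11aCre and Spi1f/f, and the WT group (4 libraries) was Tnfrsf11a+/+ with the same Spi1f/f alleles, so the floxed Spi1 was common to both groups and Cre was not. The controls were littermates. Cre from the Tnfrsf11a locus is active in macrophage progenitors, and Spi1, which encodes PU.1, is needed for macrophage differentiation; KO fetal livers therefore serve as a model of macrophage depletion, in which the sorted LT-HSCs are not themselves the intended target. The gate excluded lineage-positive and CD48-positive cells and kept cells positive for c-Kit, Sca1 and CD150. Nothing in the labels states a litter, batch or sex for each embryo.

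RUNX proteins bind DNA through a conserved Runt domain and act as heterodimers with CBFB, the subunit that does not contact DNA and that raises the affinity and stability of the RUNX protein. RUNX1 is required for the emergence of hematopoietic stem cells from hemogenic endothelium and later for megakaryocyte and lymphoid differentiation, RUNX2 is the central regulator of osteoblast differentiation, and RUNX3 acts in T and natural killer cells and in sensory neurons. Each RUNX gene has a distal promoter (P1) and a proximal promoter (P2), whose transcripts encode proteins with different amino termini.

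The sequence that the P1 windows have in common is shown because the share of reads from P1 is compared below. In windows from 250 bases before to 50 bases after the RefSeq start site (build GRCm38.p6), the longest run present in the P1 windows of all 3 RUNX genes had 18 bases. It is printed in capitals in 30-base stretches, 5′ to 3′ on the strand of the gene.
Runx1 P1, chr16:92826025-92826054, minus strand: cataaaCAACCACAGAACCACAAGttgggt
Runx2 P1, chr17:44814583-44814612, minus strand: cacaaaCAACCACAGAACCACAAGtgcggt
Runx3 P1, chr4:135120503-135120532, plus strand: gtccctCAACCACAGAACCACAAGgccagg

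The run holds 2 copies of ACCACA, the core letters bound by RUNX proteins, spaced as ACCACANNACCACA. Counting the RefSeq start site as position 1 and the base before it as position -1, the run began at position 27 in Runx1, 22 in Runx2 and -136 in Runx3. Of 32851 promoter windows of this length in mouse, 4 (0.0122%) held the 18-base run on either strand, and the fourth belonged to Gm16225, whose window overlaps that of Runx3 on the opposite strand. ACCACA or its reverse complement TGTGGT alone was present in 16.8% of all windows, and the spaced pair in 7 windows (0.0213%). The P2 windows of Runx1 and Runx3 and the single window of Cbfb held 0 copies of ACCACA on either strand, and a P2 window of Runx2 was not analysed here. A match is a description of the letters only.

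The libraries held 5315435 to 30941726 counts in KO (median 16754477) and 7633446 to 18256010 in WT (median 12668227), with no molecular identifiers, so counting limits cover counting error only. All 12 markers of LT-HSCs and of the gate were above 1 CPM (counts scaled to library size) in all 10 libraries, but their sum was lower in WT (729 to 1273 CPM) than in 5 of 6 KO libraries (1199 to 2416 CPM over KO). Of the 12, 2 (Mecom and Hlf) passed the edgeR test described below as higher in KO, where 1.32% of all genes did. RNA of genes that mark other cells was present as well. The 10 endothelial markers, among them Stab2, Lyve1 and Kdr and some that stem cells also express, such as Pecam1 and Tek, summed to 1348 to 9504 CPM in KO and 313 to 5976 CPM in WT, 9 megakaryocyte markers to 273 to 4000 CPM in KO and 287 to 1317 CPM in WT, 8 erythroid markers to 278 to 2447 CPM in KO and 296 to 6808 CPM in WT, and 9 hepatoblast markers to 90.6 to 9032 CPM in KO and 269 to 6188 CPM in WT. Markers of T, natural killer and innate lymphoid cells summed to at most 48.7 CPM, with Cd3e at 0 in every library, and those of mesenchyme and bone to at most 303 CPM. Markers of mast cells, basophils and granulocytes summed to 12.6 to 393 CPM in KO and 29.9 to 1688 CPM in WT, and those of cells that the gate removes to at most 38.8 CPM. Macrophage markers summed to 214 to 921 CPM in KO and 92.0 to 708 CPM in WT. The highest values in that list were those of Mrc1 (65.4 to 714 CPM in KO, 3.11 to 489 CPM in WT). The median log2 fold change of the 12 macrophage markers was -1.16, with Mrc1, Vcam1 and Cd68 above 0 and the others below. Of the 12, 1, Marco, passed as lower in KO, as did Epor, the erythropoietin receptor gene, among the 8 erythroid markers. Over all genes tested, 2.67% passed as lower. Spi1 itself was 60.6 ± 31.1 CPM in KO (SD, n = 6) against 24.4 ± 21.3 CPM for WT (SD, n = 4), a log2 difference of 1.31 ± 0.69 (SE) with an edgeR adjusted p of 0.337, so Spi1 was not lower in the sorted KO cells; since Cre was directed at macrophage progenitors, this does not check the labels. In such bulk samples, fewer cells of a type and less RNA per cell cannot be told apart.

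Xist, the RNA of the inactive X chromosome, was below 3 CPM in 4 of 6 KO libraries (15405, 15411, 15412 and 15415) and in 0 of 4 WT libraries, while the other 2 KO libraries (15406 and 15409) and all WT libraries had 78.7 to 430 CPM (here scaled to total counts without TMM factors). Libraries without Xist were thus found only in KO, and for the difference between these 4 libraries and the WT libraries, the sex of the embryo and the genotype cannot be told apart. Values within the Xist-positive libraries, 2 KO against 4 WT, are given with each gene below.

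Of the 4 genes, 0 passed an edgeR quasi-likelihood test at an adjusted p below 0.1, where 667 of 16725 genes (3.99%) did, a number that ran from 0 to 1003 when single libraries were left out. These were 221 genes higher and 446 lower in KO, against 53 and 484 with an offset for transcript length, which moved the median log2 fold change of all genes from 0.06 to -0.15. At an unadjusted p below 0.05, 2 of the 4 (Runx1 and Runx2) were counted, where 18.8% of all genes were, and DESeq2 with the settings of the study called 1 of the 4 (Runx2), where it called 6.79% of all genes. Runx1 and Runx2 had the higher group mean in KO, Runx3 the higher one in WT, and Cbfb had nearly equal means. The p-values measure the spread between these embryos' libraries.

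**Figure D1:**
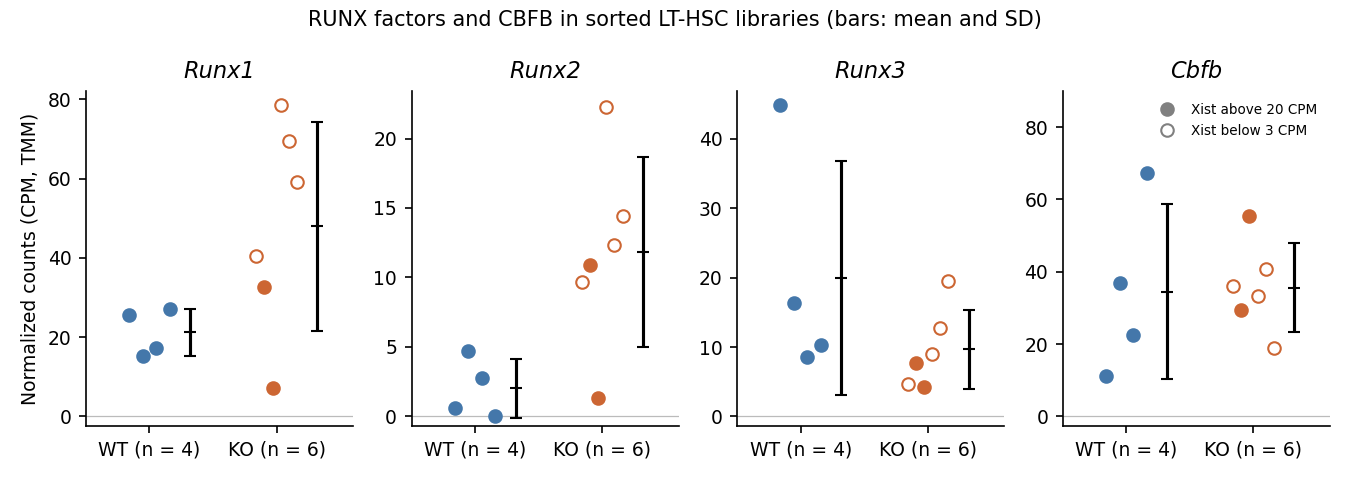
Normalized counts (CPM, counts scaled to library size by TMM; linear axes) of the 4 genes in each library, with the group mean and SD as black bars. Open circles are the 4 KO libraries with Xist below 3 CPM, and filled circles have Xist above 20 CPM. In Runx1 and Runx2, 5 of 6 KO libraries lie above every WT library, whereas the groups overlap in Runx3 and Cbfb.

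Runx1 (chr16:92601466-92826149, minus strand, GRCm38) had 7.20 CPM in the lowest KO library, a median of 49.9 CPM and 78.5 CPM in the highest. The WT libraries 15416, 15417, 15418 and 15420 had 25.6, 15.3, 17.2 and 27.0 CPM. Thus 5 of 6 KO libraries were above all WT libraries, and the remaining one, 15409, was below all of them with 133 counts in a library of 17940128. The mean was 48.0 ± 26.4 CPM in KO (SD, n = 6) against 21.3 ± 5.92 CPM for WT (SD, n = 4). The log2 fold change was 1.18 ± 0.50 (SE), with a 95% interval of 0.08 to 2.27, and edgeR gave an adjusted p of 0.232. A two-sided exact permutation test over the 210 labelings gave p = 0.1, where the smallest p possible was 0.00476.

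A single library decided the call for Runx1: without KO 15409 the log2 fold change was 1.40, with an edgeR adjusted p of 0.0549. The result also followed the Xist split. The 4 KO libraries without Xist had 40.5 to 78.5 CPM, whereas the Xist-positive KO libraries 15406 and 15409 had 32.7 and 7.20 CPM, on either side of the WT range. Within Xist-positive libraries the log2 difference was -0.10, and with Xist as a covariate it was 0.32. An antisense gene, Gm26626, shares 106 exonic bases (0.881%) with Runx1. Megakaryocyte markers, whose cells depend on RUNX1, summed to 2698 to 4000 CPM in the 3 KO libraries with the most Runx1 (15411, 15412 and 15415). They summed to 558, 645 and 273 CPM in KO 15405, 15406 and 15409. In WT 15416, 15417, 15418 and 15420 the sums were 287, 1135, 797 and 1317 CPM. Thus KO 15405 and 15406 had more Runx1 than every WT library but lower sums than WT 15417, 15418 and 15420. The part of these markers in the result was not tested.

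Runx2 (chr17:44495987-44814797, minus strand) had few counts in WT, with 0.61, 4.70, 2.74 and 0 CPM in 15416, 15417, 15418 and 15420. These rest on 8, 53, 37 and 0 counts, and a count of 0 in 15420 allows up to 0.425 CPM (3 counts). In KO the lowest library had 1.35 CPM (25 counts in 15409), the median was 11.6 CPM and the highest library, 15411, had 22.3 CPM (490 counts). As with Runx1, 5 of 6 KO libraries exceeded every WT library and 15409 did not. The mean was 11.8 ± 6.81 CPM in KO (SD, n = 6) against 2.01 ± 2.14 CPM for WT (SD, n = 4).

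For Runx2 the log2 fold change was 2.54 ± 0.96 (SE), with a 95% interval of 0.45 to 4.62, and an edgeR adjusted p of 0.186. The exact permutation test gave p = 0.0333 (two-sided, unadjusted, 1 of 4 genes so tested). DESeq2 gave a log2 fold change of 2.55 with an adjusted p of 0.0623 with the settings of the study. The Xist-positive KO libraries had 10.9 CPM (15406) and 1.35 CPM (15409), 1 above and 1 within the WT range, and in that subset the log2 difference was 1.55. An antisense RNA, Runx2os1, shares 519 exonic bases (5.87%) with Runx2, and with counting that does not use strand, reads from these bases cannot be told apart. Bone and mesenchymal markers did not separate the groups (22.4 to 303 CPM in KO, 32.2 to 262 CPM in WT), and Sp7, an osteoblast factor downstream of RUNX2, was at most 0.46 CPM and at 0 in 5 libraries.

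Runx3 (chr4:135120652-135177990, plus strand) differed mainly by 1 WT library. The WT libraries had 44.8 CPM in 15416, 16.3 CPM in 15417, 8.50 CPM in 15418 and 10.3 CPM in 15420. In KO the lowest value was 4.17 CPM, the median 8.38 CPM and the highest 19.5 CPM. Hence 3 of 6 KO libraries were below all WT libraries and the other 3 lay within the WT range. The mean was 9.65 ± 5.74 CPM in KO (SD, n = 6) against 19.996 ± 16.9 CPM for WT (SD, n = 4).

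The log2 fold change of Runx3 was -1.05 ± 0.54 (SE), with a 95% interval of -2.23 to 0.13 and an edgeR adjusted p of 0.325. Without WT 15416 it was -0.28, with an edgeR adjusted p of 0.825. The Xist-positive KO libraries 15406 and 15409 had 7.74 and 4.17 CPM, both below the WT range, and in that subset the log2 difference was -1.75. The WT library 15416 also had the lowest endothelial marker sum of all 10 (313 CPM), the lowest sum of LT-HSC markers (729 CPM) and the lowest Ptprc, the gene of the leukocyte antigen CD45 (2.73 CPM). The T and natural killer cell markers, from the cells in which RUNX3 is best known, were lowest in the same library at 8.80 CPM. The highest values in that list were those of Gata3 and Tcf7, while Cd3e was at 0 in every library and Cd3g at most 0.25 CPM. The sum is thus a poor measure of such cells, and their part in the Runx3 level was not tested.

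Cbfb (chr8:105170674-105217989, plus strand) had the same mean in both groups to within its error, 35.6 ± 12.2 CPM in KO (SD, n = 6) against 34.5 ± 24.3 CPM for WT (SD, n = 4). The WT libraries 15416, 15417, 15418 and 15420 had 11.1, 36.9, 22.6 and 67.4 CPM. In KO the lowest library had 18.8 CPM, the median was 34.7 CPM and the highest library had 55.5 CPM, so that all KO values lay inside the WT range. The log2 fold change was 0.05 ± 0.43 (SE; edgeR adjusted p of 0.964), and its 95% interval, -0.88 to 0.98, still includes differences of nearly 1 log2 unit in either direction. The Xist-positive KO libraries had 29.4 CPM (15406) and 55.5 CPM (15409), and in that subset the log2 difference was 0.29. The sign changed with single libraries, from -0.24 without WT 15416 to 0.60 without WT 15420.

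**Figure D2:**
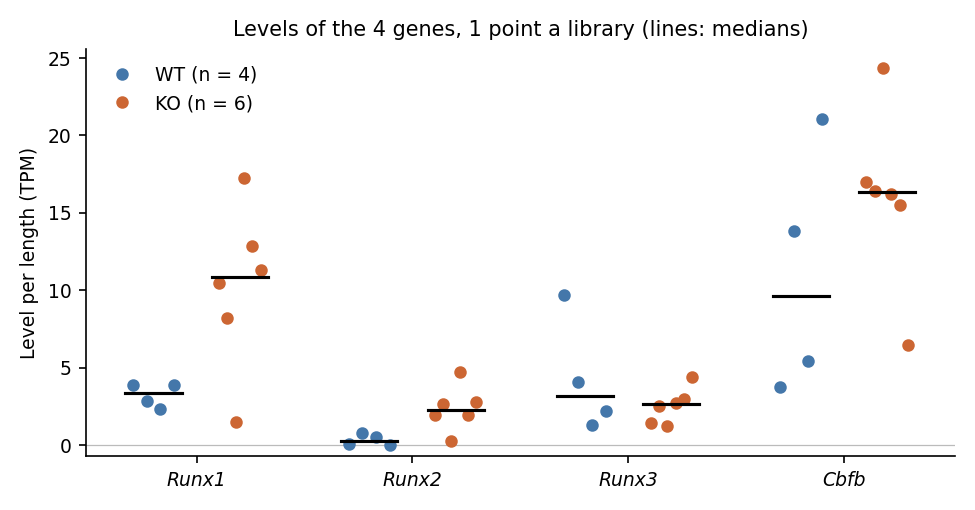
Levels per transcript length (TPM; linear axis) of the 4 genes, with 1 point a library and a line at the group median. Cbfb is highest by median in both groups, and Runx2 is lowest, between 0 and 0.78 TPM in WT.

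Levels were compared between genes in TPM, which accounts for transcript length. TPM carries no TMM factors, so differences between the groups are those given in CPM above. Cbfb had a median of 16.3 TPM in KO and 9.63 TPM in WT, Runx1 of 10.9 and 3.39 TPM, Runx3 of 2.66 and 3.16 TPM, and Runx2 of 2.30 and 0.31 TPM. Cbfb was above Runx2 in all 10 libraries, above Runx3 in 9 and above Runx1 in 7. Runx1 exceeded Runx2 in 10 of 10 libraries and Runx3 in 8 of 10, the exceptions being among the WT libraries, where Runx1 was above Runx3 in 2 of 4. The neighbours Runx2 and Runx3 had no fixed order in KO, where Runx2 was higher in 3 of 6 libraries, but Runx3 was higher in 4 of 4 WT libraries. By mean TPM over the 10 libraries, Cbfb was above 65.4% of 16620 genes and Runx1 above 54.2%, Runx3 above 41.8% and Runx2 above 33.8%.

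To ask which promoter the RUNX transcripts came from, the estimated reads of each gene were divided between transcripts that start at P1 and those that start farther downstream. The P1 and P2 start sites of the main transcripts are 128821 bases apart in Runx1, 78149 in Runx2 and 31844 in Runx3. P1 transcripts dominated in all 3 genes and in both groups. Runx1 had a P1 share of 87.6% ± 2.38 (SD, n = 6) in KO and 91.4% ± 7.72 (SD, n = 4) in WT, a difference of -3.88 percentage points with p = 0.281 in the exact permutation test (1 of 2 shares tested). The KO values were 83.3 to 90.2%, and in WT they were 93.7, 94.3, 80.2 and 97.7%, so that 15418 alone among the WT libraries fell below the KO range. Without WT 15418 the difference was -7.64 percentage points, and the exact permutation p of 0.0119 is the smallest that 6 against 3 libraries can give. Leaving out 15418 puts every remaining WT share above the KO range, so this p follows from which library was dropped and adds no support.

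**Figure D3:**
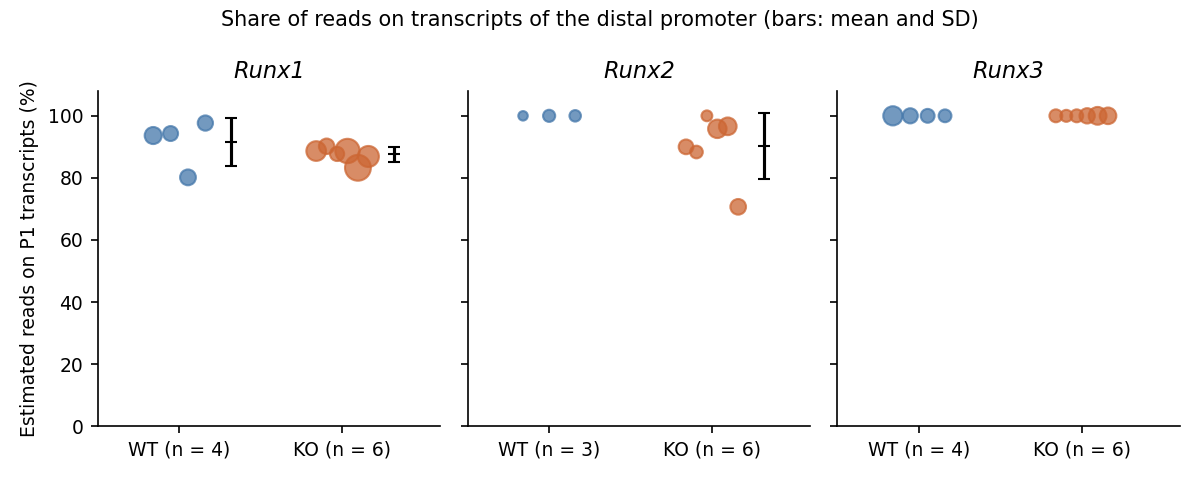
Share of a gene's estimated reads (percent) on transcripts that start at the distal promoter P1, with 1 point a library, point area growing with the reads of the gene in that library, and mean and SD as black bars where the values vary. Runx3 is at 100% in all 10 libraries, and the KO library of Runx2 at 70.7% is 15415.

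Runx2 reads came from P1 in 90.2% ± 10.5 (SD, n = 6) in KO, where the range was 70.7 to 100%, and in 100% in the 3 WT libraries with any reads. The difference was -9.76 percentage points with p = 0.202 in the exact permutation test over 84 labelings, and -5.85 without KO 15415. The WT shares rest on 8.38, 53.5 and 37.6 estimated reads and are correspondingly loose. For Runx3 all reads were on the P1 transcript Runx3-201 in 10 of 10 libraries. A count of 0 on P2 transcripts allows a share of up to 0.270% in KO (1113 reads pooled) and 0.311% in WT (966 reads pooled). Not all bases can tell the promoters apart: of the 2714 bases found in the P1 transcript Runx1-201 and not in the P2 transcript Runx1-202, 2190 lie beyond the end of Runx1-202, and for Runx3 the figures were 2321 and 1809, so part of each P1 share rests on where transcripts end. In Runx2, Runx2-202 and Runx2-203 end at the same base, and 465 and 1030 bases set them apart.

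At the level of single transcripts, 18 of the 33 had reads and 15 were tested. Of these 15, 0 passed edgeR at an adjusted p below 0.1, where 1 of 70054 transcripts (0.00143%) did; 3 had an unadjusted p below 0.05, where 13.9% of all transcripts did, and DESeq2 without a fold-change threshold called 1, where it called 6.88% of all transcripts. The P1 transcript Runx1-201, which encodes the long form of 465 residues, carried 80.3% of all Runx1 reads, whereas Runx1-202 from P2, encoding 387 residues, carried 8.29%. The log2 fold change of Runx1-201 was 1.04 ± 0.52 (SE; edgeR adjusted p of 0.377), close to that of the gene.

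The transcript called by DESeq2 was Runx1-206, an intron-retaining transcript without a coding sequence that starts at P2. It had 43.8, 8.34, 54.6, 74.7 and 24.0 estimated reads in KO 15405, 15406, 15411, 15412 and 15415, and it was at 0 in KO 15409 and in all 4 WT libraries. Set against a floor of 3 counts in each WT library, its mean CPM was 7.14-fold higher in KO. This bound covers counting error only, not the spread between embryos or the assignment of reads to transcripts. The transcript was also picked for it because it was at 0 in WT. The edgeR adjusted p was 0.242 and that of DESeq2 0.00244. KO 15409 had the fewest Runx1 counts of all libraries (133), whereas KO 15406 with 207 had reads on this transcript and the WT libraries with 172 to 338 had none. Runx1-207, a non-coding transcript from P1, had 3.25 to 249 estimated reads in KO and 0 to 11.97 in WT, with a log2 fold change of 2.51 ± 1.18 (SE; edgeR adjusted p of 0.366).

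Runx2-202, the P1 transcript encoding 528 residues, carried 91.5% of all Runx2 reads, and its log2 fold change was 2.34 ± 1.05 (SE; edgeR adjusted p of 0.353). Runx3-201, encoding 423 residues, followed its gene at -1.05 ± 0.57 (SE; edgeR adjusted p of 0.406). Cbfb reads were divided mainly between Cbfb-203 (148 residues) with 66.8% and Cbfb-202 (182 residues) with 30.3%. The shares of Cbfb-202 were 28.7% ± 8.85 (SD, n = 6) in KO and 29.5% ± 11.9 (SD, n = 4) in WT. Cbfb-203 has 0 exonic bases that Cbfb-202 lacks, while Cbfb-202 has 404 bases of its own. Cbfb-203 has 5 exons and Cbfb-202 has 6, so reads across exon junctions can also set them apart. Junctions were not compared here.

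The genes that work with RUNX proteins were described in 6 lists, of which 96 of 103 genes were tested. Among them 2 passed as higher in KO, Cd34 and Smad3, and 0 as lower, where 1.32% of all genes passed as higher and 2.67% as lower. The median log2 fold change was 0.20 over the 96 genes and 0.06 over all genes tested.

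**Figure D4:**
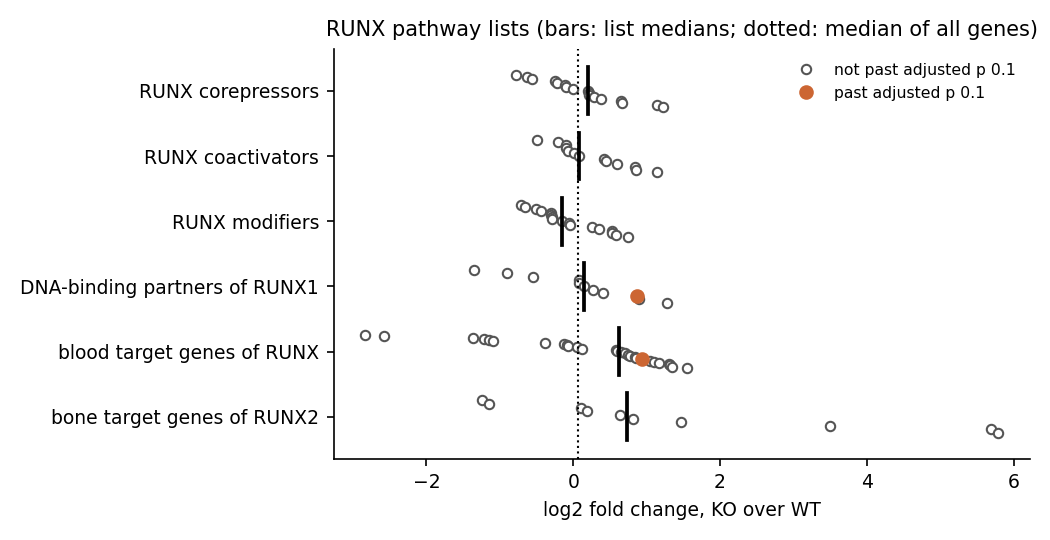
Log2 fold change (KO over WT) of each tested gene in 6 lists of RUNX cofactors and targets; black bars are list medians and the dotted line is the median of all genes, 0.06. Filled points, Smad3 and Cd34, are the 2 genes past an adjusted p of 0.1.

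Corepressors recruited by RUNX proteins, among them the Groucho/TLE proteins, ETO family members and histone deacetylases, had 0 of 17 genes past the threshold (3 at an unadjusted p below 0.05, 0 by DESeq2 with the settings of the study) and a median log2 fold change of 0.21. The smallest p-values were those of Hdac2, a histone deacetylase, with 51.3 ± 13.9 CPM in KO (SD, n = 6) against 79.1 ± 16.6 CPM for WT (SD, n = 4), and of Tle3 with 29.97 ± 7.16 and 19.2 ± 4.33 CPM. Tle3 was higher in 6 of 6 KO libraries than in any WT library, with an edgeR adjusted p of 0.208. Among coactivators, 0 of 13 passed (3 at an unadjusted p below 0.05, 0 by DESeq2), with a median of 0.07; Kmt2a, a histone methyltransferase that binds RUNX1, had 84.7 ± 21.4 CPM in KO and 46.8 ± 19.0 CPM in WT (edgeR adjusted p of 0.129). Ep300, an acetyltransferase, had 29.3 ± 11.1 and 16.3 ± 4.29 CPM (edgeR adjusted p of 0.196).

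Of 17 enzymes that modify RUNX proteins or set their stability, 0 passed (1 at an unadjusted p below 0.05, 0 by DESeq2) and the median was -0.16. The ubiquitin ligase Smurf1, which acts on RUNX2, had 28.9 ± 9.71 CPM in KO (SD, n = 6) and 17.3 ± 7.18 CPM in WT (SD, n = 4), with an edgeR adjusted p of 0.289. Among 11 DNA-binding partners of RUNX1, 1 passed as higher (5 at an unadjusted p below 0.05, 2 by DESeq2), with a median of 0.14. Those at an unadjusted p below 0.05 went in both directions. Tal1 and Gata1, factors of erythroid and megakaryocyte development, had log2 fold changes of -0.90 and -1.35 (edgeR adjusted p of 0.172 and 0.266). Gata2 and Fli1 were at 1.27 and 0.89 (edgeR adjusted p of 0.113 and 0.237), and Smad3 was higher as well. Smad3, which transmits TGF-beta signals, had 28.0, 26.5, 34.2 and 31.1 CPM in the WT libraries, and in KO the lowest library had 32.7 CPM and the mean was 54.9 ± 13.04 CPM (SD, n = 6). Its log2 fold change was 0.87 ± 0.23 (SE; edgeR adjusted p of 0.0905).

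Target genes of RUNX in blood had a median of 0.62, with 18 of 28 above 0 and 1 past the threshold (5 at an unadjusted p below 0.05, 2 by DESeq2). Over all genes tested, 8884 of 16725 were above 0 and the median was 0.06. The target gene past the threshold was Cd34, a surface sialomucin of stem and progenitor cells that endothelial cells also express, with 250 ± 48.7 CPM in KO (SD, n = 6) against 131 ± 38.5 CPM for WT (SD, n = 4). In 5 of 6 KO libraries Cd34 was above every WT library, and the log2 fold change was 0.93 ± 0.23 (SE; edgeR adjusted p of 0.0824). Neither call was stable to leaving out single libraries: Cd34 passed in 3 of 10 such fits (without KO 15409, WT 15417 or WT 15420) and Smad3 in 2 of 10 (without KO 15409 or WT 15418), with log2 fold changes of 0.81 to 1.15 and 0.80 to 0.99. Both lost the call with Xist as a covariate, where 0 of 16725 genes passed edgeR and 2451 had an unadjusted p below 0.05.

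Target genes of RUNX2 in bone did not separate the groups by the test. Of 14 listed, 10 were tested, 0 passed (2 at an unadjusted p below 0.05, 0 by DESeq2) and the median was 0.73. The levels ran from Spp1, an adhesive bone matrix protein that other cells also make, with 14.1 ± 17.2 CPM in KO (SD, n = 6) against 33.5 ± 34.05 CPM for WT (SD, n = 4), and the collagen gene Col1a2 with 24.996 ± 18.4 and 23.1 ± 31.2 CPM, down to genes near 0. Col10a1, a collagen of hypertrophic cartilage, was at 0 in every WT library and in 3 of 6 KO libraries, with 2.35 CPM in 15412 as its highest value.

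The genes whose levels ran most closely with each of the 4 were found by Pearson correlation of log2 CPM over the 10 libraries, among 9494 or 9495 genes with a mean of at least 10 CPM; these are descriptions, since the points share their libraries and the scaling. For Runx1 they were Cbfa2t3 (r = 0.96), an ETO family corepressor that is itself in the corepressor list, Prkcd (0.95) and Srgn (0.95). Runx2 ran with Sfi1 (0.98), Kdm6b (0.97), a histone demethylase, and Prdm16 (0.97), a regulator of stem cell maintenance. Runx3 ran with Rp9 (0.97), Snhg11 (0.95) and Slc6a13 (0.92), and Cbfb with Tecpr1 (0.98), Mfap3 (0.98) and Zswim6 (0.98). After the group means were subtracted, each of these 12 correlations was at least 0.92. The genes were chosen for high correlation in the same libraries, so these values are no separate check.

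Cbfb and Runx3 varied in opposite directions with the RNA of endothelial cells. WT 15416 and KO 15415, which had the least endothelial RNA (313 and 1348 CPM over 10 markers), had the lowest Cbfb (11.1 and 18.8 CPM) and the highest Runx3 (44.8 and 19.5 CPM), and KO 15409, with the most (9504 CPM), had 55.5 CPM of Cbfb and the lowest Runx3, 4.17 CPM. The highest Cbfb, 67.4 CPM, was in WT 15420, which had 5917 CPM of endothelial markers. Over the 10 libraries the Pearson correlation of log2 values was 0.87 for Cbfb and -0.87 for Runx3, against -0.26 for Runx1 and 0.09 for Runx2. These points share their libraries and scaling, and WT 15416 and KO 15415 stand apart from the rest. Other marker sums ran with Cbfb as well, at 0.95 for plasmacytoid dendritic cell markers (188 to 515 CPM in KO and 132 to 483 CPM in WT) and 0.87 for macrophage markers. Runx3 ran against the same sums, at -0.82 and -0.84, and against T and natural killer cell markers at -0.71. In the plasmacytoid list the defining marker Siglech was at most 1.90 CPM, and the sum came mainly from Tcf4, Bst2 and Irf8, which other cells also express. In the macrophage list the highest values were those of Mrc1, so the sum does not stand for all its markers. The part of endothelial or other marker RNA in these levels was not tested. Runx2 varied most with the LT-HSC markers (0.89), followed by markers of cells that the gate removes (0.81, with sums of at most 38.8 CPM). Runx1 varied most with the megakaryocyte markers (0.74). Group means were not subtracted for these correlations with marker sums.

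**Figure D5:**
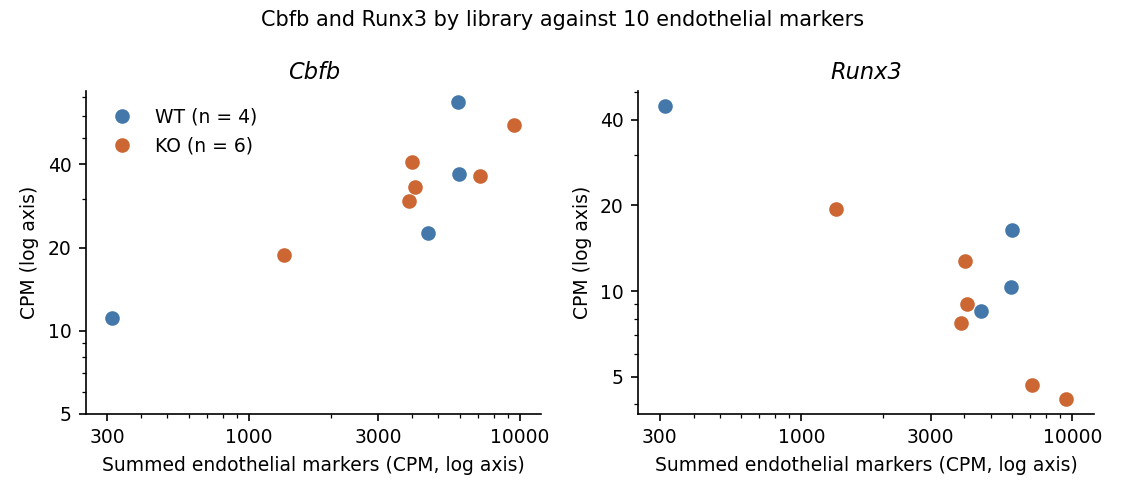
Levels of Cbfb and Runx3 in each library (CPM, log axis) against the summed level of 10 endothelial markers (CPM, log axis). Cbfb is lowest and Runx3 highest in WT 15416, the library with the least endothelial RNA.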

How the data were processed

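RNA of sorted LT-HSCs (6 KO and 4 WT libraries, grouped by the genotype in the labels) was amplified by SmartSeq2, a full-length method that does not keep strand. The authors quantified the reads with Kallisto 0.44.0 on Gencode vM16 (GRCm38), after bcl2fastq 2.20, and deposited estimated counts and TPM for each transcript, and a gene table of whole-number counts, summed over transcripts and not normalized. Of the values in that table, 97.5% were within 1 count of the sums of the deposited transcript estimates by symbol.

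Of the gene table, genes summing to 11 counts or more were tested across all 10 libraries with edgeR 4.0.16 in R 4.3.3 (TMM, glmQLFit robust, glmQLFTest, Benjamini-Hochberg over all genes, threshold 0.1, the threshold of the study); transcripts were tested in the same way on rounded estimated counts. SE values were derived from the F statistic. Single values were compared by two-sided exact permutation tests in Python 3.11.15. Transcript starts came from Gencode vM21, with starts chained within 2000 bases into 1 promoter. Scripts were tested on simulated data. The 4 genes and the lists were chosen with earlier results of these data known. Named from each list were the genes past the threshold, or otherwise the 2 with the smallest p, and for each of the 4 genes the 3 most like it. Some genes that this rule names are not reported here. Other genes were named after their values were seen.

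The alternatives were DESeq2 1.42.0 with a log2 fold-change threshold of 0.1 or none, its size factors, upper-quartile factors, filterByExpr, filters of 1 count and of 11 counts in 1 library, no robust option, Xist as a covariate, offsets for transcript length, an adjusted p below 0.05 and each library left out. For P1 shares they were TPM, protein-coding transcripts and chains of 500 or 5000 bases. The fit on Xist-positive libraries (above 20 CPM) was added after seeing the data.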

Additional observations from a re-analysis of the deposited data

How the results depend on the processing

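The direction of Runx2 and Runx3 was kept in all 23 alternatives each, though not all of these could change it. The stricter threshold and the fit without the robust option repeat the main estimate, and both DESeq2 settings share a single estimate. Both genes ranged widely in size, from 1.55 to 3.35 and from -1.75 to -0.28 on the log2 scale, with adjusted p from 0.0333 to 0.880 and from 0.225 to 0.837. Runx2 passed the threshold with DESeq2 (log2 fold change 2.55; adjusted p 0.0623 with a fold-change threshold and 0.0333 without one). Runx1 reversed to -0.10 within Xist-positive libraries, an alternative chosen after seeing the data, and ranged from 0.98 to 1.40 when single libraries were left out. Cbfb reversed with the transcript length offset (-0.20) and ranged from -0.24 to 0.60 when single libraries were left out, below 0 without KO 15409, WT 15416 or WT 15418.

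All genes past the threshold numbered 667, against 1136 and 2143 with DESeq2 (the second with no fold-change threshold) and 0 with Xist as a covariate, in Xist-positive libraries or at an adjusted p below 0.05, where the unadjusted p was below 0.05 for 2451, 703 and 3139 genes. When single libraries were left out the number was 0 to 1003: 0 without KO 15405, 15406, 15412 or 15415 or WT 15416, 1 without KO 15411 and 1003 without KO 15409. RUNX cofactors and targets past the threshold numbered 2, against 4 and 11 with DESeq2, 0 with Xist as a covariate, in Xist-positive libraries or at an adjusted p below 0.05, and 0 to 6 when single libraries were left out. DESeq2 called 1 RUNX transcript. The P1 share of Runx1 differed by -7.64 to -1.18 percentage points over its alternatives (-7.64 to -1.80 when single libraries were left out), and that of Runx2 by -15.6 to -5.74. Cbfb-203 reversed with upper-quartile factors (-0.15), and when single libraries were left out ranged from -0.10 to 0.48; Cbfb-202 ranged from -0.46 to 0.59. The causes were not tested. No paired analysis was possible because the labels give the groups no shared replicate numbers. Depth limited Runx2 most, with 0 to 53 counts in WT.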

Other observations

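The make-up of the RUNX pool was examined after the values had been seen and is given as description, with no test. Of the summed TPM of Runx1, Runx2 and Runx3, Runx3 made up 31.8 to 70.9% in WT and 10.5 to 41.5% in KO, and Runx1 made up 28.5 to 64.0% in WT and 49.7 to 75.5% in KO. The KO library inside the WT range of the Runx3 share was 15409, with 41.5%. The sum was 15.2 ± 7.23 TPM (SD, n = 6) in KO and 7.95 ± 4.11 TPM (SD, n = 4) in WT. Its ratio to Cbfb ran from 0.124 in KO 15409 to 3.67 in WT 15416.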
